A study of Arabidopsis thaliana with 12 samples.

Results

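GH3.3 and WES1 encode acyl-acid amido synthetases of the GH3 family, and their mRNA was measured in roots of Arabidopsis thaliana seedlings that differ in the ARABIDILLO genes. Both genes were taken by symbol, and each was read by a single probe set of the Affymetrix ATH1 array, 245076_at for GH3.3 (locus AT2G23170) and 253908_at for WES1 (locus AT4G27260, also called GH3.5). They are 2 of 13286 genes read here by a probe set with a single gene name. Both were bright enough to stay among the 13648 of 22746 probe sets left by a filter on dim signal.

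GH3 enzymes of this kind join amino acids to indole-3-acetic acid, the main natural auxin, and so lower the pool of free hormone. Auxin itself switches on the transcription of many of them, which makes GH3.3 a widely used readout of auxin response, while WES1 also acts on salicylic acid and is known to respond to stress hormones. In roots, auxin drives the founding of lateral roots, a process that the F-box proteins ARABIDILLO-1 and ARABIDILLO-2 promote.

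The series asked which genes depend on the ARABIDILLO proteins, with 3 arrays in each of 4 groups of 7-day-old roots. The ara1OX group carried 35S:Ara1YFP, a fusion of ARABIDILLO-1 to a yellow fluorescent protein under the 35S promoter, which is active in most plant cells, in the Col-0 background. The ara1/2mut group was mutant in ARABIDILLO-1 and ARABIDILLO-2 and had Col-3 as its background, and the wild types were Col-3 and Col-0. All plants were kept cold for 2 days and then grown on agar at 24 °C with 16 h of light, and no group received a further treatment. The labels number the replicates without saying whether they came from separate plantings, or how many lines were used, so p-values here cover the spread among these samples alone, and that spread could be technical.

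The deposited values are MAS5 signals on a linear scale, with every array scaled to the same trimmed mean. Arrays correlated with each other at r between 0.845 and 0.937 across all probe sets on the log2 scale, so no array was a copy of another. Spiked-in control RNA was brighter in ara1OX replicate 3 than elsewhere, at 4.64-fold its level in the median array, while the other arrays lay between 0.659-fold and 1.94-fold. The 3' to 5' signal ratio of actin controls ran from 7.12 (ara1OX replicate 3) and 8.09 (ara1/2mut replicate 2) to 25.2 (ara1/2mut replicate 1). It ran from 0.753 to 1.16 for GAPDH and from 1.72 to 2.38 for ubiquitin. Mean r with arrays of the same group was 0.857 to 0.877 in ara1OX and 0.896 to 0.925 in the other groups. The part of these measures in the GH3.3 values was not tested. The 3 named root marker genes JKD, EXPA7 and EXPA18 were measured in every group. Their summed signal ran from 597 to 697 in ara1OX, from 486 to 590 in ara1/2mut, from 438 to 486 in Col-3 and from 506 to 576 in Col-0. The shoot genes RCA and LHCB4.1 had summed signals of 170 to 230 in ara1OX, 186 to 339 in ara1/2mut, 161 to 239 in Col-3 and 152 to 221 in Col-0. Neither targeted ARABIDILLO gene had a named probe set (0 for each), so their levels are not analysed here.

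GH3.3, an auxin-induced gene, varied widely between arrays. Its signal was 200, 142 and 316 in ara1OX replicates 1, 2 and 3. In ara1/2mut it was 120, 82.6 and 225, in Col-3 it was 111, 87.0 and 199, and in Col-0 it was 189, 150 and 138, in the same replicate order. The brightest array was ara1OX replicate 3, the dimmest ara1/2mut replicate 2, and the ranges of all 4 groups overlapped. The group means were 219 ± 88.9 in ara1OX, 143 ± 73.6 in ara1/2mut, 132 ± 58.6 in Col-3 and 159 ± 26.8 in Col-0 (SD, n = 3 each). By mean log2 signal the order from high to low was ara1OX, Col-0, ara1/2mut and Col-3, and each pair of neighbours overlapped.

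WES1 was far steadier. Its signal was 235, 273 and 307 in ara1OX replicates 1, 2 and 3. In ara1/2mut it was 258, 242 and 278, in Col-3 it was 280, 275 and 311, and in Col-0 it was 234, 267 and 267. All 12 arrays lay between 234 and 311, a 1.33-fold range, against a 3.83-fold range for GH3.3. Group means were 272 ± 36.4 in ara1OX, 259 ± 18.4 in ara1/2mut, 289 ± 19.6 in Col-3 and 256 ± 19.0 in Col-0 (SD, n = 3 each). By mean log2 signal Col-3 came first, then ara1OX, ara1/2mut and Col-0, with overlap between each pair of neighbours.

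**Figure D1:**
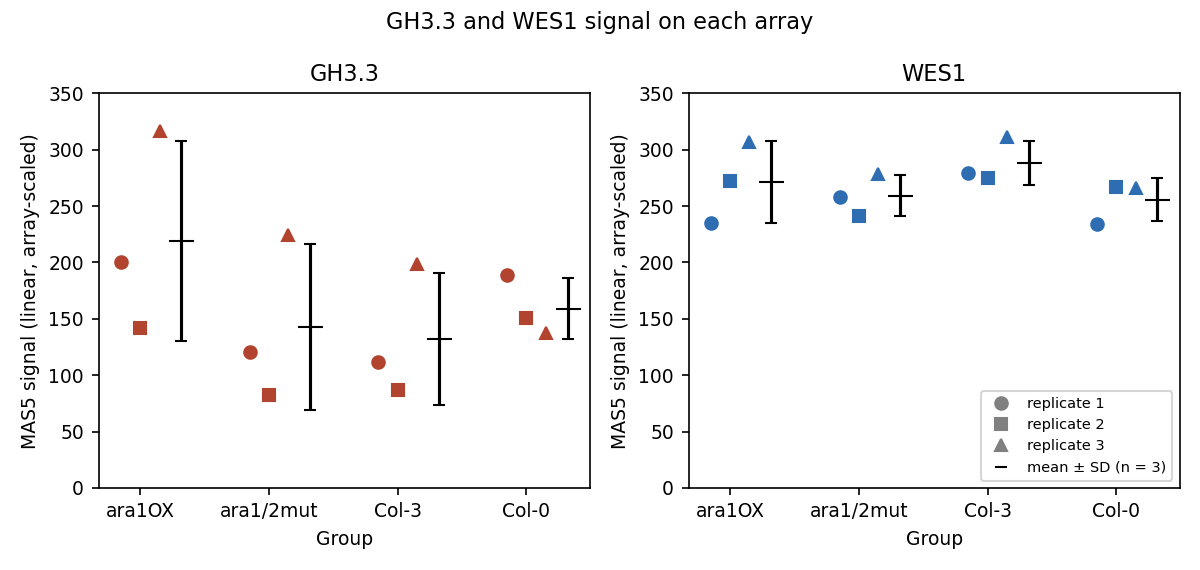
MAS5 signal (linear, scaled per array) of GH3.3 on the left and WES1 on the right, with a point per array shaped by replicate number and the group mean ± SD (n = 3) beside the points. GH3.3 spans 82.6 to 316 and WES1 234 to 311, and for GH3.3 the replicate 3 array is the highest in ara1OX, ara1/2mut and Col-3 but the lowest in Col-0.

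The spread of the members within groups set them apart from each other. The residual SD of log2 signal around the group means was 0.57 for GH3.3 and 0.13 for WES1, where the median over the 13648 probe sets was 0.28. GH3.3 was more variable than 92.4% of those probe sets and WES1 more variable than 4.67% of them. Differences between the 4 groups held 28.0% of the variation of GH3.3 and 28.4% of that of WES1, close to the median of 26.7% over all probe sets. A moderated F test in limma for any difference among the 4 groups gave an adjusted p of 0.809 for GH3.3 and 0.927 for WES1. In that test 0.044% of the probe sets passed at an adjusted p under 0.05, and 0 of 2 members did.

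Roots that overexpress the ARABIDILLO-1 fusion were compared with Col-0 first. GH3.3 averaged 219 ± 88.9 in ara1OX and 159 ± 26.8 in Col-0 (SD, n = 3 each), a log2 difference of 0.40 (SE 0.36) or 1.32-fold, with a 95% confidence interval from 0.775-fold to 2.24-fold. The limma adjusted p was 0.892. Replicates 1 (200) and 3 (316) of ara1OX lay above every Col-0 array, and replicate 2 (142) lay among them. Without ara1OX replicate 3, the array with the bright spike-in, the log2 difference was 0.10, and without ara1OX replicate 2 it was 0.67. WES1 had a log2 difference of 0.08 (SE 0.15), 1.06-fold with an interval from 0.853-fold to 1.31-fold and an adjusted p of 0.955. Neither member passed, 0 of 2, and 0 of 2 had an unadjusted limma p under 0.05. Over all probe sets 0.022% passed and 6.43% had such an unadjusted p. The root marker sums in ara1OX were all above those of Col-0, 597 to 697 against 506 to 576, and their part in the GH3.3 values was not tested. The sum was mostly EXPA7 and EXPA18, with log2 differences of 0.37 and 0.25, while JKD had -0.18, and 0 of the 3 passed in limma. Of these genes only EXPA7 had ranges that did not overlap, 255 to 291 in ara1OX against 204 to 221 in Col-0. The share of all probe sets that separate in this way was not counted. In bulk roots, fewer cells that express a gene and less RNA per cell cannot be told apart.

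Loss of both ARABIDILLO genes was compared with Col-3. GH3.3 averaged 143 ± 73.6 in ara1/2mut and 132 ± 58.6 in Col-3 (SD, n = 3 each), a log2 difference of 0.07 (SE 0.36). This was 1.05-fold, with an interval from 0.619-fold to 1.79-fold and a limma adjusted p of 0.999. Its sign was not stable, since the log2 difference was -0.32 without ara1/2mut replicate 3 and 0.41 without Col-3 replicate 3. WES1 averaged 259 ± 18.4 in ara1/2mut and 289 ± 19.6 in Col-3, a log2 difference of -0.15 (SE 0.15) or 0.898-fold, with an interval from 0.725-fold to 1.11-fold and an adjusted p of 0.999. All 3 ara1/2mut arrays lay below the Col-3 mean of log2 signal, although the highest (278) exceeded the lowest Col-3 array (275). An exact permutation test of the 3 arrays against 3 gave p = 0.20 for WES1, two-sided, and cannot go below 0.10. Of the 2 members 0 passed in limma and 0 had an unadjusted p under 0.05. Of all probe sets 0% passed and 3.56% had such an unadjusted p.

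The wild types were compared because the altered lines lie in different backgrounds. GH3.3 averaged 132 ± 58.6 in Col-3 and 159 ± 26.8 in Col-0 (SD, n = 3 each), a log2 difference of -0.34 (SE 0.36, adjusted p 0.990 in limma). WES1 averaged 289 ± 19.6 in Col-3 and 256 ± 19.0 in Col-0. The log2 difference was 0.17 (SE 0.15), 1.13-fold with an interval from 0.911-fold to 1.40-fold and a limma adjusted p of 0.971. For WES1 the ranges did not overlap, with all 3 Col-3 arrays at 275 or above and all 3 Col-0 arrays at 267 or below. The exact permutation p was 0.10, the smallest that 3 arrays against 3 can give. How many of all probe sets separate in this way was not counted, so the separation is not read as a trait of WES1. Of the 2 members 0 passed in limma and 0 had an unadjusted p under 0.05, and over all probe sets 0% passed and 5.08% had such an unadjusted p.

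Next, the change in ara1OX was set against the change in ara1/2mut, each relative to its own wild type. The difference between the changes was 0.33 (SE 0.51) on the log2 scale for GH3.3, with a limma adjusted p of 0.958. For WES1 it was 0.23 (SE 0.21), with an adjusted p of 0.921. In this contrast 0.0147% of the probe sets passed, and neither member was among them.

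The largest log2 differences of GH3.3 were those of ara1OX against the Col-3 background. Against ara1/2mut, GH3.3 averaged 219 ± 88.9 in ara1OX and 143 ± 73.6 in ara1/2mut (SD, n = 3 each), 1.59-fold with an interval from 0.935-fold to 2.70-fold. The unadjusted limma p was 0.0825 and the adjusted p 0.555, where 0.154% of probe sets passed. Against Col-3 the GH3.3 difference in ara1OX was 1.67-fold, with an interval from 0.983-fold to 2.84-fold. Its unadjusted p was 0.0570 and its adjusted p 0.497, where 0.234% of probe sets passed and 10.4% had an unadjusted p under 0.05. All 3 ara1OX arrays lay above the mean log2 signal of each of these groups, and the ranges overlapped in both comparisons. In both comparisons the background differed along with the genotype, and GH3.3 in Col-3 against Col-0 alone had the log2 difference of -0.34 given above. Against ara1/2mut the log2 difference of 0.67 was 0.34 without ara1/2mut replicate 2, 0.37 without ara1OX replicate 3 and 1.06 without ara1/2mut replicate 3. Against Col-3 the log2 difference of 0.74 was 0.32 with array weights, 0.48 without Col-3 replicate 2 and 0.44 without ara1OX replicate 3. WES1 had log2 differences of 0.06 (SE 0.15) against ara1/2mut and -0.09 (SE 0.15) against Col-3, with limma adjusted p-values of 0.919 and 0.859.

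The remaining contrasts gave smaller values. For ara1/2mut against Col-0 the log2 difference was -0.27 (SE 0.36) for GH3.3 and 0.02 (SE 0.15) for WES1, each with a limma adjusted p of 1.00, and 0% of probe sets passed. For the mean of both altered lines against the mean of both wild types it was 0.24 (SE 0.25) for GH3.3 and -0.04 (SE 0.10) for WES1, each with an adjusted p of 0.993, and again 0% of probe sets passed.

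**Figure D2:**
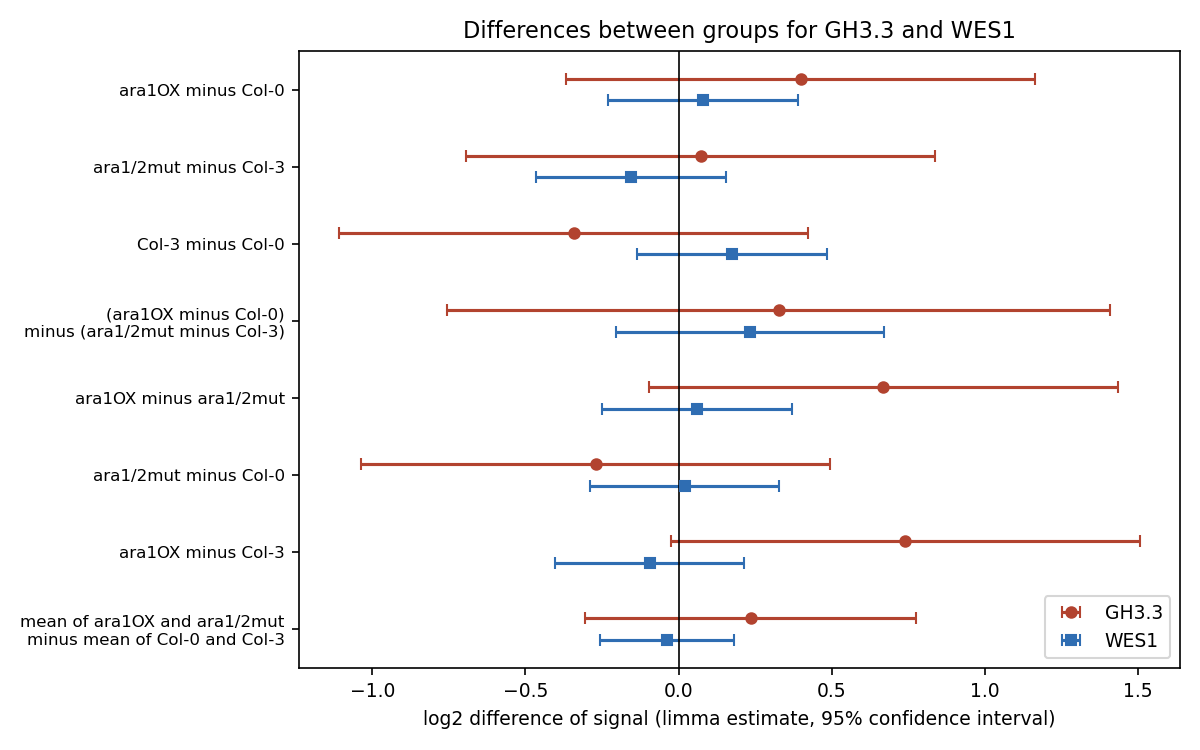
Log2 differences of signal between groups (horizontal axis) for each contrast (vertical axis), with limma estimates as points and 95% confidence intervals as bars, GH3.3 in red and WES1 in blue. All intervals include 0, those of GH3.3 are wider than those of WES1, and the 2 largest estimates are GH3.3 in ara1OX minus Col-3 (0.74) and in ara1OX minus ara1/2mut (0.67).

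GH3.3 signals followed the replicate number in 3 of the groups. Relative to its group mean of log2 signal, replicate 3 stood at 0.61 in ara1OX, 0.78 in ara1/2mut and 0.67 in Col-3, but at -0.19 in Col-0. Replicate 2 stood at -0.55 in ara1OX, -0.66 in ara1/2mut and -0.52 in Col-3, and at -0.07 in Col-0. In these 3 groups replicate 1 lay between, at -0.05, -0.12 and -0.16, and in Col-0 it was the highest at 0.26. Arrays of ara1/2mut and Col-3 with the same number thus had GH3.3 signals close to each other, 120 and 111, 82.6 and 87.0, and 225 and 199. Between same-numbered arrays, in the order 1, 2 and 3, the GH3.3 log2 difference was 0.85, 0.70 and 0.67 in ara1OX against Col-3. It was 0.73, 0.78 and 0.49 in ara1OX against ara1/2mut and 0.08, -0.09 and 1.20 in ara1OX against Col-0. In the first 2 of these comparisons it was above 0 in 3 of 3, and there the background differed along with the genotype. The share of all probe sets with the same sign in 3 of 3 was not counted. The shared sign is therefore not read as a trait of GH3.3.

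WES1 showed a smaller departure of the same kind for replicate 3, which was above its group mean by 0.19 in ara1OX, 0.10 in ara1/2mut, 0.11 in Col-3 and 0.06 in Col-0. Between same-numbered arrays of ara1/2mut and Col-3 the WES1 log2 difference was -0.12, -0.19 and -0.16, below 0 in 3 of 3. Between same-numbered arrays of ara1OX and Col-0 it was 0.00, 0.03 and 0.21. Here too the share of all probe sets with the same sign in 3 of 3 was not counted. The array of highest spike-in signal was replicate 3 in ara1OX (4.64-fold of the median array) and Col-0 (1.42-fold), and replicate 2 in ara1/2mut (1.94-fold) and Col-3 (1.02-fold). The part of the spike-in signal in these values was not tested. What the replicate numbers stand for is not given in the sources used here.

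**Figure D3:**
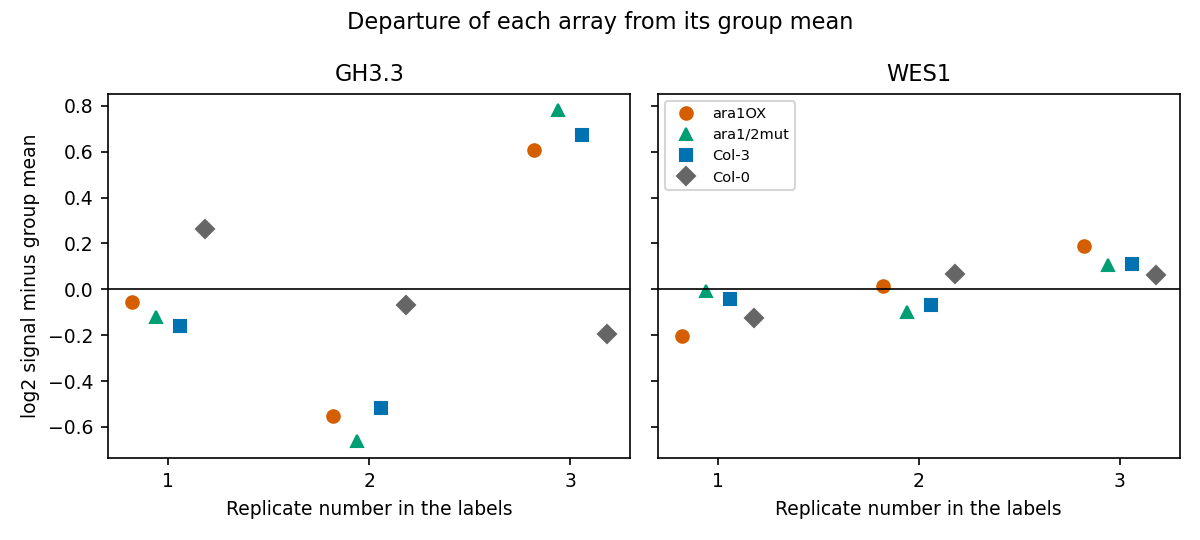
Log2 signal of each array minus the mean of its group (vertical axis) by replicate number in the labels (horizontal axis, categories), for GH3.3 on the left and WES1 on the right. For GH3.3 replicate 3 lies 0.61 to 0.78 above the mean in ara1OX, ara1/2mut and Col-3 and 0.19 below it in Col-0, while WES1 departures run from -0.20 to 0.19.

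The pair of genes was also compared within arrays, where the scaling of an array cancels. The signal ratio of GH3.3 to WES1 was 0.853, 0.520 and 1.03 in ara1OX replicates 1, 2 and 3. In ara1/2mut it was 0.467, 0.342 and 0.807, in Col-3 it was 0.398, 0.316 and 0.638, and in Col-0 it was 0.809, 0.563 and 0.517. The ratio depends on the probes, so only its change between groups can be read, and the ranges overlapped between each line and its wild type and between the wild types. The log2 ratio differed by 0.32 in ara1OX against Col-0 (exact permutation p = 0.40), by 0.23 in ara1/2mut against Col-3 (exact permutation p = 0.60) and by -0.52 in Col-3 against Col-0 (exact permutation p = 0.30), all two-sided with 3 arrays a group.

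Over the 12 arrays the log2 signals of GH3.3 and WES1 had a Pearson r of 0.33 (permutation p 0.299) and a Spearman rho of 0.24 (permutation p 0.460), both 0.460 after Benjamini-Hochberg adjustment over these 2 tests of 1 relation. The permutations treat the 12 arrays as independent, although arrays share groups and replicate numbers, so these p-values are approximate. Without ara1OX replicate 3 and ara1/2mut replicate 2, the 2 arrays farthest from the median of GH3.3, r was -0.14. For departures from the group means r was 0.55 (n = 12, a description with no p, since the points share replicate numbers).

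Of the other GH3 genes, 3 could be read by name, GH3.17, GH3.9 and GH3.1, and only GH3.17 was bright enough to test. GH3.17 encodes an enzyme that joins glutamate to indole-3-acetic acid. Its signal was 525, 524 and 582 in ara1OX, 806, 1051 and 783 in ara1/2mut, 726, 744 and 814 in Col-3 and 783, 526 and 619 in Col-0. All ara1OX arrays were below all ara1/2mut and all Col-3 arrays, while the ranges of ara1OX and Col-0 overlapped. Where the ranges separated, the background differed along with the genotype. How many of all probe sets separate in this way was not counted.

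GH3.17 had a log2 difference of -0.22 (SE 0.16, limma adjusted p 0.859) in ara1OX against Col-0 and 0.20 (SE 0.16, adjusted p 0.999) in ara1/2mut against Col-3. In ara1OX against ara1/2mut it was -0.68 (SE 0.16), with an unadjusted p of 0.000716 and an adjusted p of 0.171 in limma. Of all probe sets 9.94% had an unadjusted p under 0.05 there. In the same contrast GH3.3 had 0.67, on the other side of 0. GH3.9 signals ran from 1.31 to 14.1 and GH3.1 signals from 1.92 to 25.7 over all arrays, below or near the filter signal of 22.4, so they were not tested.

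The wider auxin pathway was read through lists of genes for synthesis, inactivation, perception and response. Of the lists of transport genes, auxin response factors and SAUR genes 0 members had a probe set named in the annotation used, so these are not analysed here. That annotation left 8730 probe sets of the array unnamed. With 1 list of salicylic acid response, the lists held 27 genes with a named probe set, of which 13 were bright enough to test. The 3 enzymes of inactivation other than GH3 were AT1G14130 (DAO1) and AT1G14120 (DAO2), oxidases of indole-3-acetic acid, and UGT74D1, a glucosyltransferase. Of synthesis there were YUC2 and YUC6, which encode flavin monooxygenases of the main auxin route. Of perception and response there were SKP2A, an F-box gene, the Aux/IAA repressor genes IAA18 and IAA31, and LBD16, LBD29 and PUCHI, whose transcription factors act in lateral root founding. GRX480 encodes a glutaredoxin of the salicylic acid response.

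Set against Col-0, ara1OX gave the 12 tested auxin genes 6 log2 differences above 0 and 6 below, with a median of -0.08, beside a median of -0.03 over all probe sets. Over all probe sets 44.6% of the log2 differences were above 0, 0.022% passed and 6.43% had an unadjusted p under 0.05. Of the 12 genes 0 passed in limma and 0 had an unadjusted p under 0.05. The 4 of smallest p were IAA31 at 0.54 (SE 0.37), AT1G14130 at -0.28 (SE 0.20), YUC6 at 0.88 (SE 0.63) and GH3.17 at -0.22. The signals of YUC6, 31.4, 18.0 and 53.1 on the ara1OX arrays and 12.9, 13.4 and 28.2 on those of Col-0, lay near the filter signal of 22.4. GRX480 had -0.39 (SE 0.23, adjusted p 0.829).

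In ara1/2mut against Col-3 the same 12 genes had 9 log2 differences above 0 and 3 below, with a median of 0.12, beside 0.01 over all probe sets. Over all probe sets 51.6% of the log2 differences were above 0, 0% passed and 3.56% had an unadjusted p under 0.05. Of the 12 genes 0 passed in limma and 0 had an unadjusted p under 0.05. AT1G14120 had the smallest p, with 0.44 (SE 0.25, adjusted p 0.999). Its signal was 421, 587 and 458 in ara1/2mut against 246, 397 and 463 in Col-3, and the ranges overlapped. The next were GH3.17 at 0.20, YUC6 at 0.73 (SE 0.63) and LBD16 at 0.20 (SE 0.21).

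In Col-3 against Col-0 the 12 genes had 7 log2 differences above 0 and 5 below, with a median of 0.11, beside -0.00 over all probe sets. Over all probe sets 49.6% of the log2 differences were above 0, 0% passed and 5.08% had an unadjusted p under 0.05. Of the 12 genes 0 passed in limma and 0 had an unadjusted p under 0.05. Those of smallest p were GH3.17 at 0.26 (SE 0.16), AT1G14120 at -0.36 (SE 0.25), PUCHI at 0.59 (SE 0.43) and AT1G14130 at 0.23 (SE 0.20).

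**Figure D4:**
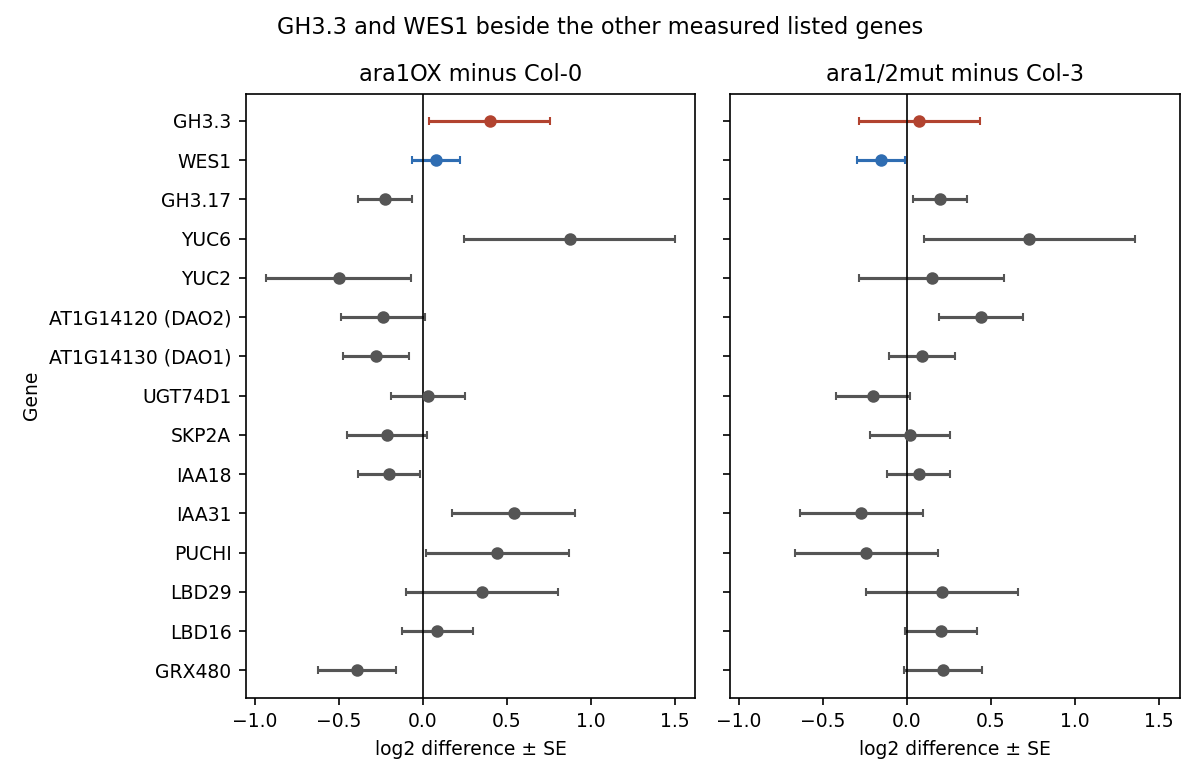
Log2 difference of signal ± SE (horizontal axis) for GH3.3, WES1 and the 13 other listed genes that passed the filter (vertical axis), in ara1OX minus Col-0 on the left and ara1/2mut minus Col-3 on the right. YUC6 has the highest estimate in both panels, 0.88 and 0.73, with an SE of 0.63, and no gene passed the test.

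Among the listed genes LBD16, a transcription factor gene of lateral root initiation that is itself induced by auxin, had the pattern most like GH3.3. Its log2 signal correlated with that of GH3.3 at r = 0.74 over the 12 arrays, above 99.7% of the 7320 other named probe sets that passed the filter, and it is named here after the values of all 13 listed genes were seen. LBD16 had signals of 65.0, 62.8 and 88.7 in ara1OX, 69.5, 55.7 and 78.1 in ara1/2mut, 65.6, 49.7 and 60.9 in Col-3 and 63.6, 63.6 and 74.8 in Col-0. Replicate 2 was the lowest array of ara1OX, ara1/2mut and Col-3 for LBD16, as it was for GH3.3. In Col-0, replicate 3 was the highest array for LBD16 and the lowest for GH3.3. In Col-3 the highest array was replicate 1 for LBD16 and replicate 3 for GH3.3. LBD29 had r = 0.48 with GH3.3, WES1 had 0.33, DAO1 (AT1G14130) had -0.53 and YUC2 had -0.69.

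Over the same named probe sets, the 5 genes with the highest Pearson r with GH3.3 over the 12 arrays were AT5G61660 (0.92), AT4G32930 (0.85), AT1G65820 (0.84), AT5G53320 (0.82) and AT2G20760 (0.80). AT5G61660 had signals from 17.5 to 64.9, around the filter signal. The 5 most like WES1 were AT1G64850 (0.93), AT2G25280 (0.90), BIGYIN (0.89), AT4G16400 (0.84) and AT4G29735 (0.84). BIGYIN, also called FIS1A, encodes a protein of mitochondrial and peroxisomal fission. These 10 genes were picked as the highest of 7320 probe sets, the arrays share their scaling, and no p is given. No gene was in both sets of 5, and neither set held a listed gene.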

How the data were processed

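Roots of 4 groups of 3 seedling samples were measured on ATH1 arrays. The authors' deposited intensity values are linear MAS5 signals, as the submitters' processing notes name the tool. Its version and target were not stated in what was read. Each deposited array had a trimmed mean of 100.01 with 2% left out at each end.

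Signals were taken as log2 with no further normalization. Of 22810 probe sets, 64 controls were left out, and then those whose mean log2 signal over all arrays was below the 40th percentile (4.49, a signal of 22.4). All 12 arrays entered 1 limma 3.58.1 fit (R 4.3.3) with a variance trend and 8 residual degrees of freedom, plus 7.49 from the prior. The SEs and confidence intervals use variances drawn toward that trend, which narrows them for GH3.3 and widens them for WES1. All tests were two-sided, and p-values were adjusted by Benjamini-Hochberg over 13648 probe sets. Precision is limited by the number of arrays. The fit was tested on simulated arrays with independent noise of each probe set's own spread, in ara1OX against Col-0. Of 200 probe sets picked at random, 42.5% passed with a log2 change of 1 and 92% with a change of 2. GH3.3 was more variable than 92.4% of the probe sets tested, so these shares do not hold for it. Correlation p-values used 100000 resamples.

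GEO's platform annotation, with loci matched to RefSeq names of TAIR10.1, gave 13436 probe sets a single gene, and 8730 are unnamed here. Members and lists were chosen with earlier results of these data known. The text names both members, the 4 auxin genes of smallest p in the comparisons with the wild types, every other GH3 gene read by name, and the 5 genes most like each member. The likeness values of listed genes, GRX480 and the further contrasts of GH3.17 were named after their values were seen. Alternatives were another normalization, filter, pseudocount or variance model, array weights, a fit of the compared groups alone, a replicate block and leaving out each array.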

Additional observations from a re-analysis of the deposited data

How the results depend on the processing

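Of 300 repeated fits of the 2 members under the alternatives, 0 passed the threshold. Of the 260 with a sign, 76 kept the estimate by construction (filter, variance model, compared groups alone or replicate block), and of the other 184, 169 kept their direction and 15 reversed. With array weights the log2 difference of GH3.3 in ara1/2mut against Col-3 was -0.14. For WES1 in ara1/2mut against Col-0 it was -0.020 with array weights and -0.0026 with median centring. With 1 array left out, GH3.3 in ara1OX against Col-0 lay between 0.10 and 0.67, and in ara1/2mut against Col-3 between -0.32 and 0.41. The difference between those changes lay between -0.011 and 0.72, and GH3.3 in ara1/2mut against Col-0 between -0.66 and 0.061. For GH3.3 in ara1OX it lay between 0.44 and 1.08 against Col-3 and between 0.34 and 1.06 against ara1/2mut. WES1 in ara1OX lay between -0.014 and 0.18 against Col-0, between -0.034 and 0.16 against ara1/2mut, and between -0.19 and 0.0060 against Col-3. It lay between -0.043 and 0.070 for ara1/2mut against Col-0 and between -0.084 and 0.013 for both altered lines against both wild types. The log2 ratio of GH3.3 to WES1 in ara1/2mut against Col-3 lay between -0.11 and 0.51.

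The count of all probe sets passing moved more. In ara1OX against Col-0 it was 3, and 15 with array weights, 5 with only the compared groups, 17 with the replicate block and 3 to 14 with 1 array left out. In ara1/2mut against Col-3 it was 0, and 4 with array weights and 0 to 1 with 1 array left out. In Col-3 against Col-0 it was 0, and 0 to 2 with 1 array left out. For the difference between the changes it was 2, and 1 with median centring, 0 with no variance trend and 0 to 2 with 1 array left out. In ara1OX against ara1/2mut it was 21, and 6 with no variance trend, 34 with array weights, 4 with only the compared groups, 48 with the replicate block and 4 to 25 with 1 array left out. In ara1/2mut against Col-0 it was 0, and 1 with no variance trend. In ara1OX against Col-3 it was 32, and 3 with no variance trend, 132 with array weights, 21 with only the compared groups, 95 with the replicate block and 2 to 43 with 1 array left out. For both altered lines against both wild types it was 0, and 1 with the replicate block and 0 to 1 with 1 array left out. For any difference among the groups it was 6, and 65 with array weights, 56 with the replicate block and 4 to 14 with 1 array left out. The cause of these moves was not tested. Fits of only the compared groups do not apply to contrasts over all 4 groups.

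The correlation of departures from the group means was over 0.1 in 10 of 18 same-numbered pairs (median 0.13) and 3 of 36 other pairs (median -0.04). Departures cancel within each group, so the values of the other pairs are tied to those of the same-numbered pairs and are no separate baseline. Pairing was taken to need every same-numbered pair over 0.1, and the main fit held no replicate block. Falling short of that rule does not show that same-numbered arrays are unrelated. With the replicate block GH3.3 had adjusted p-values in limma of 0.708 in ara1OX against Col-0, 0.285 in ara1OX against ara1/2mut and 0.204 in ara1OX against Col-3, and no call on a member changed. Whether the dim GH3.1 and GH3.9 probe sets differ is beyond their signal over background.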

Other observations

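A test of replicate number across all 12 arrays, with genotype in the model, was chosen after seeing the data. GH3.3 had a limma F of 9.62 for replicate number, with an unadjusted p of 0.00182 and an adjusted p of 0.0990, rank 243 of 13648 probe sets, of which 0.659% passed. WES1 had an F of 1.65 and an adjusted p of 0.593. Replicate number held 46.6% of the variation of GH3.3 and 46.9% of that of WES1, against a median of 19.2% over all probe sets. These shares were nearly equal. The F values use variances drawn toward the trend, which raises F for GH3.3 and lowers it for WES1. The gap between the F values is thus not read as a difference between the genes in how they follow replicate number.

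In ara1OX against ara1/2mut, where genotype and background both differ, the 12 tested auxin genes had 4 log2 differences above 0 and 8 below, with a median of -0.20, beside -0.03 over all probe sets. Over all probe sets 45.3% of the log2 differences were above 0, 0.154% passed and 9.94% had an unadjusted p under 0.05. In limma 0 of the 12 genes passed and 3 had such an unadjusted p. These were GH3.17 at -0.68, AT1G14130 (DAO1) at -0.59 (adjusted p 0.346) and IAA31 at 0.88 (adjusted p 0.447).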
